A study of Rattus norvegicus with 28 samples.

Results

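The cytosolic ribosomal protein genes were taken as the probes whose gene symbol is Rpl or Rps followed by a digit, or Rpsa, Rplp0, Rplp1, Rplp2 or Fau, with the ribosomal S6 kinases (Rps6ka, Rps6kb, Rps6kc and Rps6kl) left out. The rule found 68 of the 22523 probes on the array, for 67 of the 13337 genes with a symbol there, with 2 probes for Rps9. No probe used here carries the symbol Fau. Of these, 63 probes for 62 genes were among the 11364 probes kept as detected, and all 63 were detected on all 28 arrays. They comprised 36 probes for large-subunit genes, 24 with a small-subunit symbol, Rps19bp1 among them, and 3 for the ribosomal stalk. The 5 members not kept were Rpl11, Rpl12 and Rpl34, detected on 0 of 28 arrays, Rps19, detected on 1, and Rpl36a, detected on 2, so nothing is said here about their response. The rule also takes in Rps19bp1, which encodes a protein that binds ribosomal protein S19 and is not itself a ribosomal protein.

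The study profiled total RNA of C6 cells, a rat glioma line induced by N-nitrosomethylurea that is widely used as an astrocyte-like cell in culture, on 1-colour Illumina bead arrays. The cells had been kept without serum for 24 h and were then exposed for 2 h to 25 µM of 1 drug. The groups were desipramine (6 arrays), fluoxetine (6), haloperidol (6), diazepam (4, numbered 1, 4, 5 and 6) and untreated (6). Desipramine is a tricyclic antidepressant, fluoxetine a selective serotonin reuptake inhibitor, haloperidol an antipsychotic that blocks dopamine D2 receptors and diazepam a benzodiazepine. All groups, the untreated one included, shared the serum-free period, and a solvent for the untreated cultures is not given in the labels. The material is 1 tumour line at 1 dose and 1 time. The labels call the arrays biological replicates without saying more of the cultures, so p-values measure the spread between these samples.

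Ribosomal proteins assemble with ribosomal RNA into the small and large subunits, and cells make them in near-equal amounts. Their mRNAs are abundant and begin with a 5′-terminal oligopyrimidine tract (TOP), a run of C and T from the first base, through which mTOR signalling controls their translation, for the most part without changing the amount of mRNA. Serum withdrawal is a standard way to lower the translation of TOP mRNAs in cultured cells. The stalk of the large subunit, built from Rplp0 with the acidic proteins Rplp1 and Rplp2, recruits the translation factors that use GTP, and Rps6 is the substrate after which the S6 kinases are named. Arrays measure the amount of mRNA relative to the rest of the RNA, and not its translation.

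The start of the transcript is where the TOP class is defined, so 9 windows are shown from 20 bases before to 20 bases after the annotated start (5′ to 3′, RefSeq, build GRCr8), with the longest run of C and T in capitals. The stalk genes Rplp0, Rplp1 and Rplp2 and the genes Rpl10, Rpl13 and Rpl31 are shown because their levels are described below and their runs are 8 bases or longer. The Rplp2 run begins at position −19 and ends before the annotated start, which is position 1. Those of Rpl13 and Rpl31 begin at position 1, those of Rplp1 and Rpl10 at −1 and that of Rplp0 at −3. The paralogues Rpl22l1 and Rpl7l1 and the binding-protein gene Rps19bp1 are shown because their runs are shorter. Short runs were not particular to these: Rpl41 and Rps12 had 3 bases and Rpl3 and Rpl6 had 5. The paralogue Rpl3l had 9.
Rplp0: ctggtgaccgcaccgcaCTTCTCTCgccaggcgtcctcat
Rplp1: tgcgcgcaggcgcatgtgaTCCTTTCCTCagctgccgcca
Rplp2: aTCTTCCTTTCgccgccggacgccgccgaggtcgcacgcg
Rpl10: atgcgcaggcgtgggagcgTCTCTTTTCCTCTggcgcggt
Rpl13: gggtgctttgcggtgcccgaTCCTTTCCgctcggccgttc
Rpl31: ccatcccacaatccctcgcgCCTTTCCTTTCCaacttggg
Rpl22l1: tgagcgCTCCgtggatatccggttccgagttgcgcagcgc
Rpl7l1: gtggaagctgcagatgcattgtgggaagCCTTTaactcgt
Rps19bp1: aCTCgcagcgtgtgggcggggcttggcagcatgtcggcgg

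The windows lie at chr12:46718371-46718410 (minus strand), chr8:71290853-71290892 (minus strand), chr1:205975901-205975940 (plus strand), chrX:157205830-157205869 (plus strand), chr19:68062494-68062533 (plus strand), chr9:49143091-49143130 (plus strand), chr2:113683176-113683215 (plus strand), chr9:21695698-21695737 (plus strand) and chr7:113693004-113693043 (minus strand), in the order printed. A window was matched by gene identifier for 55 of the 67 genes. The others were Rpl32, Rps20, Rpl37l1, Rps29, Rpl15, Rpl27, Rpl8, Rpl23a, Rpl7, Rpl30, Rps25 and Rps9. The longest run had a median of 10 bases over the 55 members, against 5 bases over all 27455 windows. A run of 8 or more was present in 38 members (69.1%), against 4268 of all windows (15.55%). The letters CTTTCC, on either strand of the same 40 bases, were present in 16 members (29.1%), against 963 of all windows (3.51%). The letters TATAAA, on either strand of the 250 bases before the start, were present in 5 members (9.09%), against 3593 of all windows (13.1%). The runs of the shown genes went from 3 bases in Rps19bp1, 4 in Rpl22l1 and 5 in Rpl7l1 to 12 in Rpl31 and 13 in Rpl10. These counts describe letters near an annotated start and not where transcripts began in these cells.

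Levels are given as log2 intensity after background correction with the negative-control detection p-values and quantile normalization, and a difference of 1 log2 unit is a 2-fold change. The members were among the brightest probes: 47 of the 63 had a mean of 12 log2 units or more. Probe levels ran from a mean of 6.56 for Rpl30 to 14.8 for Rpl3, but brightness depends on the probe and levels of different genes are not compared. RefSeq lists 1141 rat gene symbols that match the rule, 839 of them pseudogenes. Probe sequences were not used here, so signal from a gene and from near-identical copies cannot be told apart. RNA of whole cultures was measured, so fewer cells of a type and less RNA per cell cannot be told apart either. Across the series, 9839 to 10537 probes were detected per array and the mean deposited intensity per array was 386 to 862. The astrocyte and C6 markers Aldoc, Gfap, Gja1, Nes, S100b, Slc1a3 and Vim were detected on all 28 arrays and Aqp4 and Fabp7 on none. The markers of other cells gave Map2, Nefl, Nefm and Syt1 (neurons) and Cnp, Olig1 and Sox10 (oligodendrocytes) on all arrays. Snap25, Mag, Mog, the microglial Aif1 and the endothelial Cdh5 and Vwf were detected on none. None of the 4 microglial or 3 endothelial markers was detected on all arrays. Detected on part of the arrays were Cldn5 (endothelium, 26), Cx3cr1, Itgam and P2ry12 (microglia, 16, 9 and 6) and Rbfox3 and Tubb3 (neurons, 24 and 6). So were Olig2 and Mbp (oligodendrocytes, 19 and 12) and Slc1a2 (astrocyte and C6 list, 19). Of the neuron list, Nefl was lower with fluoxetine, haloperidol and diazepam and Nefm with haloperidol (1, 2 and 1 of 6 probes by limma, where 1.54%, 1.45% and 0.414% of all probes were lower), and of the oligodendrocyte list Olig1 was lower with desipramine (1 of 5, background 2.22%). Of the astrocyte and C6 list Vim was lower with fluoxetine (1 of 8), and the list's median difference was −0.12 with desipramine, −0.09 with fluoxetine, −0.15 with haloperidol and −0.08 with diazepam. Their part in the results below was not tested.

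After 2 h no ribosomal protein probe was called against untreated cells under any drug at an adjusted p under 0.05 in the fit without a replicate block. With the replicate number as a block, 1 member was called for desipramine (Rplp2, limma adjusted p = 0.0276) and 1 for fluoxetine (Rpl22l1, 0.0335). The unblocked counts are given next. The counts were 0 of 63 for desipramine, fluoxetine, haloperidol and diazepam (limma's moderated test with Benjamini-Hochberg adjustment over all 11364 probes). The background was 5.59% of all probes called for desipramine, 3.75% for fluoxetine, 3.73% for haloperidol and 0.792% for diazepam. Among the 548 probes with a mean of 12 log2 units or more, members included, 2.01% were called for desipramine, 1.28% for fluoxetine, 1.64% for haloperidol and 0.365% for diazepam. At an unadjusted p under 0.05 in limma's test there were 2 members for desipramine, 3 for fluoxetine, 3 for haloperidol and 2 for diazepam, where 17.8%, 15.7%, 16.1% and 9.31% of all probes, in the same order, were below it. The smallest adjusted p-values of a member were 0.0911 for desipramine (Rplp2), 0.0716 for fluoxetine (Rpl22l1), 0.119 for haloperidol (Rps21) and 0.201 for diazepam (Rpl31). The 4 comparisons share the untreated arrays.

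**Figure D1:**
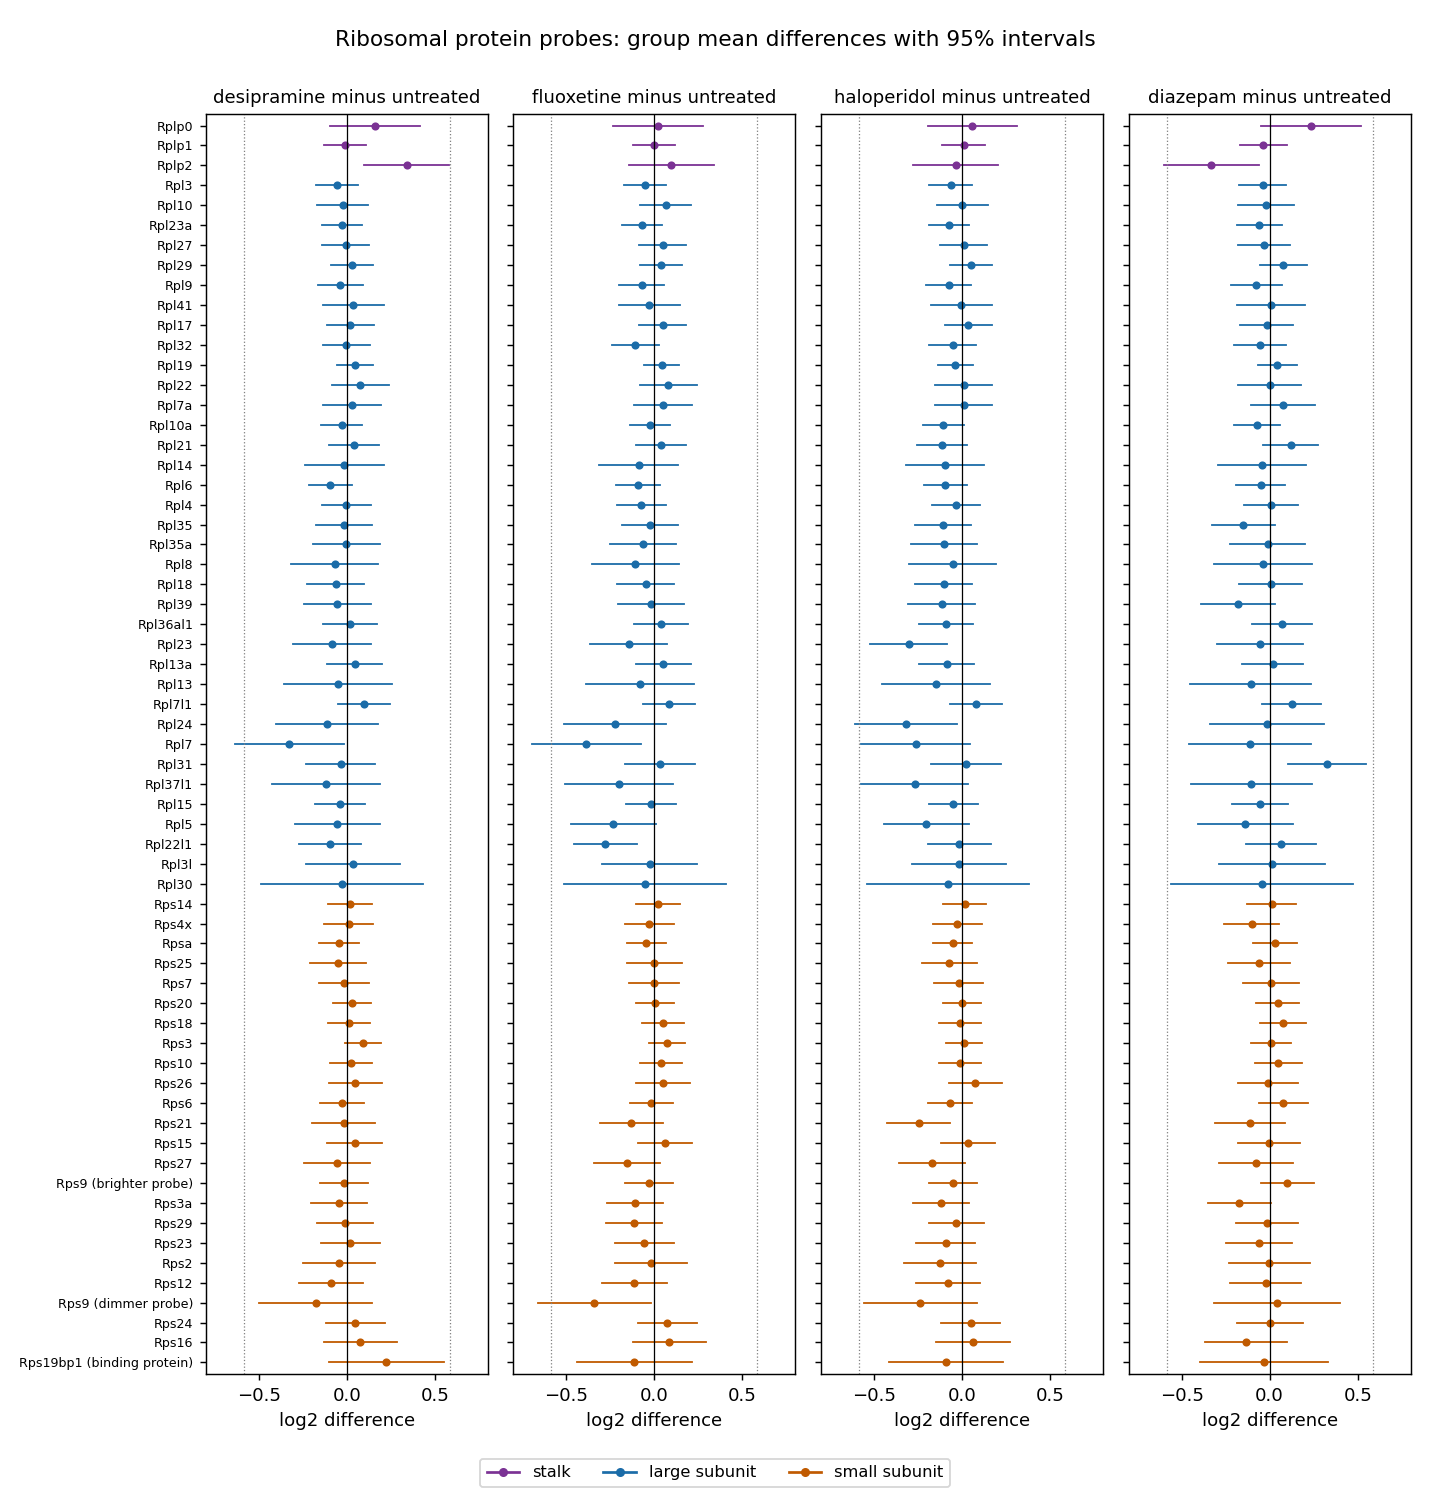
Log2 difference from untreated cells for each of the 63 ribosomal protein probes, 1 panel per drug, with 95% confidence intervals and dotted lines at 1.5-fold. The points lie within −0.39 and 0.34 in all 4 panels, and no probe was called in the fit without a replicate block.

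The intervals around the differences were narrow on the quantile-normalized scale. That scale has a top of 15.14 log2 units, and 14 members had a mean within 1.5-fold of it and 23 within 2-fold, so for these a rise of that size could not have been seen. All 63 members had 95% confidence intervals inside a 2-fold change in each of the 4 comparisons. The interval stayed inside a 1.5-fold change for 62 members under desipramine (not Rpl7), 61 under fluoxetine (not Rpl7 or the dimmer Rps9 probe), 62 under haloperidol (not Rpl24) and 62 under diazepam (not Rplp2). Over all probes the share inside 1.5-fold was 93.7%, 94.1%, 94.5% and 94.3% in the same order. A tighter bound of 0.32 log2 units either way was kept by 54, 50, 51 and 48 of the 63 members. The median standard error of a member was 0.077 log2 units for the groups of 6 arrays and 0.086 for diazepam, against 0.098 and 0.110 over all probes. No member had all arrays of a drug above or all below the untreated arrays, where 2.48% of all probes did so under desipramine, 3.26% under fluoxetine, 2.81% under haloperidol and 2.24% under diazepam.

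As a set the probes lay close to 0, slightly on the lower side in the fit without a replicate block. The median log2 difference over the 63 members was −0.013 for desipramine, −0.026 for fluoxetine, −0.053 for haloperidol and −0.015 for diazepam, with 25, 24, 16 and 26 members above 0. Over all 11364 probes the medians were −0.0068, −0.00083, −0.0020 and 0.0026. Diazepam has only arrays numbered 1, 4, 5 and 6, and its median changed sign with the replicate number as a block. It was then 0.0097 with 34 of 63 members above 0, against 0.0050 over all probes. The member medians of the other drugs were unchanged by the block. For large-subunit probes the medians were −0.024, −0.039, −0.074 and −0.026, in the same order of drugs. For probes with a small-subunit symbol, Rps19bp1 included, they were 0.00027, −0.019, −0.041 and −0.0026.

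Read against 0, the direction of the median depended on the scaling for desipramine and diazepam. For fluoxetine and haloperidol its size did, and it stayed below 0. In place of quantile normalization, each array was also scaled to its median. Desipramine's member median was then 0.032 with 42 of 63 above 0, against 0.022 over all probes. With the authors' normalized values it was 0.046 with 44 above 0, against 0.0044 over all probes. Fluoxetine's was −0.099 with median scaling (4 of 63 above 0) and haloperidol's −0.143 (2 of 63 above 0), but the 501 other bright probes had medians of −0.094 and −0.107 there. With the authors' normalized values haloperidol's member median was −0.111 with 6 above 0. Diazepam's was −0.020 with median scaling, against 0.030 over all probes, and 0.019 with scaling to the 75th percentile, against 0.068. Relative to all probes it was −0.050 in both. No member was called under any of these scalings. In haloperidol under median scaling 12 of 63 members had an unadjusted p under 0.05 in limma's test, against 16% of all probes.

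The medians also moved with the arrays included. Desipramine's was 0.0050 without desipramine 6 (33 of 63 above 0), and diazepam's was 0.0065 without diazepam 6 (34 of 63). Both stayed below 0 in their other leave-outs. With each of the 12 arrays of its comparison left out in turn, haloperidol's median ran from −0.075 to −0.036. The highest values were −0.036 without haloperidol 1 and −0.038 without haloperidol 5. The summed share of the 63 probes in the background-corrected intensity of an array was 6.77% at the lowest, 7.81% at the median and 8.03% at the highest for haloperidol, against 7.54%, 7.88% and 8.17% for untreated cells. Desipramine arrays had 7.88%, 8.09% and 8.44%, and fluoxetine arrays 6.72%, 7.86% and 8.29%. The 4 diazepam arrays had 8.05%, 7.38%, 8.61% and 8.22%. Most arrays thus held between 7% and 9% of their intensity in these probes, and 3 arrays lay below the rest, fluoxetine 1 (6.72%), haloperidol 1 (6.85%) and haloperidol 5 (6.77%). Their mean deposited intensities of 862, 635 and 616 were among the higher ones, and haloperidol 2 with 641 had a share of 7.84%. The part of array brightness in the share was not tested. Without these 3 arrays haloperidol's member median was −0.0023 and fluoxetine's −0.015. They were chosen for a low signal of these same probes, so leaving them out raises the medians by construction, and the 2 values are given as a description.

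**Figure D2:**
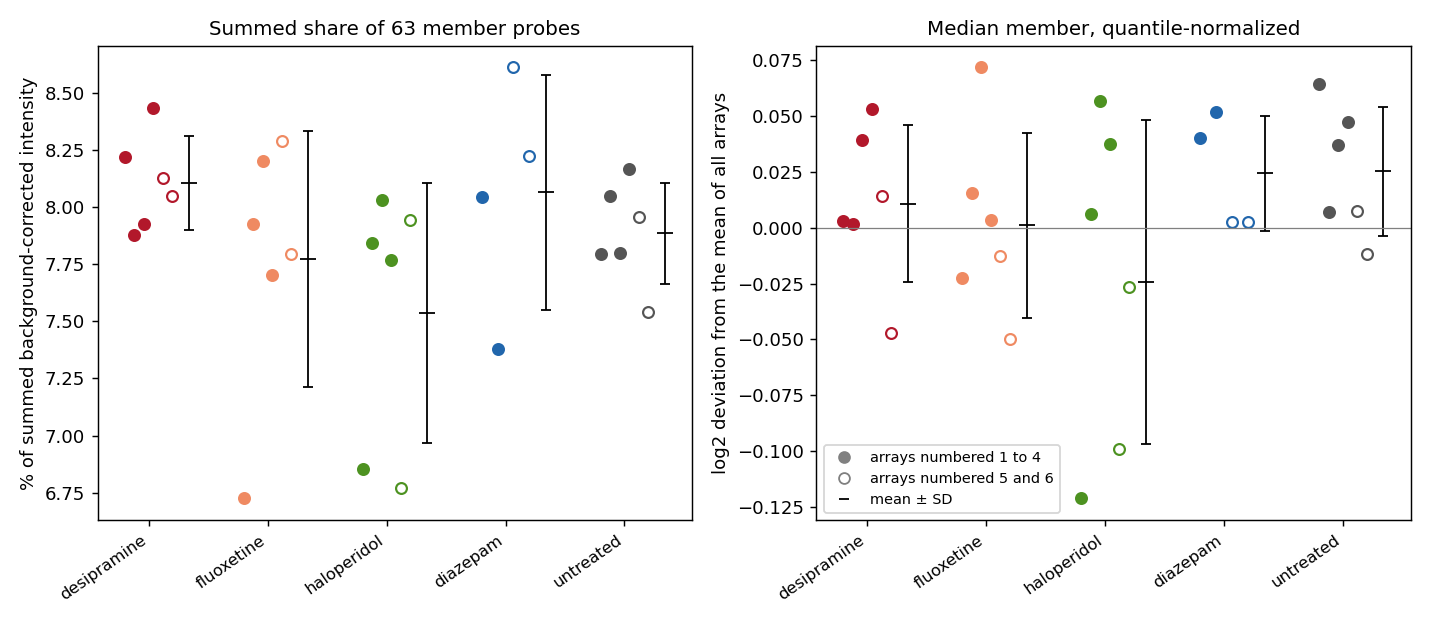
Summed share of the 63 ribosomal protein probes in the background-corrected intensity of each array, in percent, by group, with filled points for arrays numbered 1 to 4 and open points for 5 and 6. The 3 lowest arrays are fluoxetine 1 and haloperidol 1 and 5, at 6.72%, 6.85% and 6.77%.

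Rplp2 was the member that differed most between drugs. Its log2 intensity on desipramine arrays was 6.98 at the lowest, 7.48 at the median and 7.72 at the highest, against 6.81, 7.05 and 7.19 in untreated cells. The 4 desipramine arrays numbered 1 to 4 were above every untreated array, and those numbered 5 and 6 lay within the untreated range. Fluoxetine arrays had 6.67, 7.20 and 7.42, and haloperidol arrays 6.80, 7.05 and 7.18, both overlapping the untreated arrays. The 4 diazepam arrays had 6.93, 6.83, 6.66 and 6.47. Those numbered 5 and 6 were below every untreated array. Means were 7.39 ± 0.28 for desipramine (SD, n = 6), 7.15 ± 0.26 for fluoxetine, 7.02 ± 0.15 for haloperidol, 6.72 ± 0.20 for diazepam (n = 4) and 7.05 ± 0.14 for untreated cells.

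Against untreated cells Rplp2 differed by 0.34 log2 units with desipramine (95% interval 0.10 to 0.58, 1.27-fold, limma adjusted p = 0.0911) and by −0.33 with diazepam (−0.60 to −0.06, 0.795-fold, adjusted p = 0.371). Neither passed the threshold, nor did fluoxetine (0.10, adjusted p = 0.785) or haloperidol (−0.04, adjusted p = 0.93). With the replicate number as a block, desipramine's adjusted p in limma was 0.0276, which made Rplp2 the 1 member called of 63 in that fit, where 9.72% of all probes were called. The block gave 0 of 63 members for haloperidol (7.46% of all probes called) and for diazepam (1.51%). The difference was 0.48 among arrays numbered 1 to 4 (limma adjusted p = 0.00346) and 0.06 among those numbered 5 and 6 (adjusted p = 0.981).

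Between drugs, Rplp2 was higher with desipramine than with diazepam by 0.67 log2 units (SE 0.132, 95% interval 0.40 to 0.94, 1.59-fold, limma adjusted p = 0.000986). This call was kept when each of the 10 arrays was left out in turn and was lost among arrays numbered 5 and 6 alone (0.50, limma adjusted p = 0.306). Desipramine was also above haloperidol by 0.38 (SE 0.118, 1.30-fold, limma adjusted p = 0.0431). That call was lost under 6 of the 14 other settings, among them the authors' normalized values (adjusted p = 0.062 in limma), no filter on dim probes (0.08), and when any of 8 of the 12 arrays was left out. Fluoxetine exceeded diazepam by 0.43 without passing (limma adjusted p = 0.0599). Rplp2 was 1 of 2 members with a difference among the 5 groups (limma F test, adjusted p = 0.00641), where 16.1% of all probes passed.

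**Figure D3:**
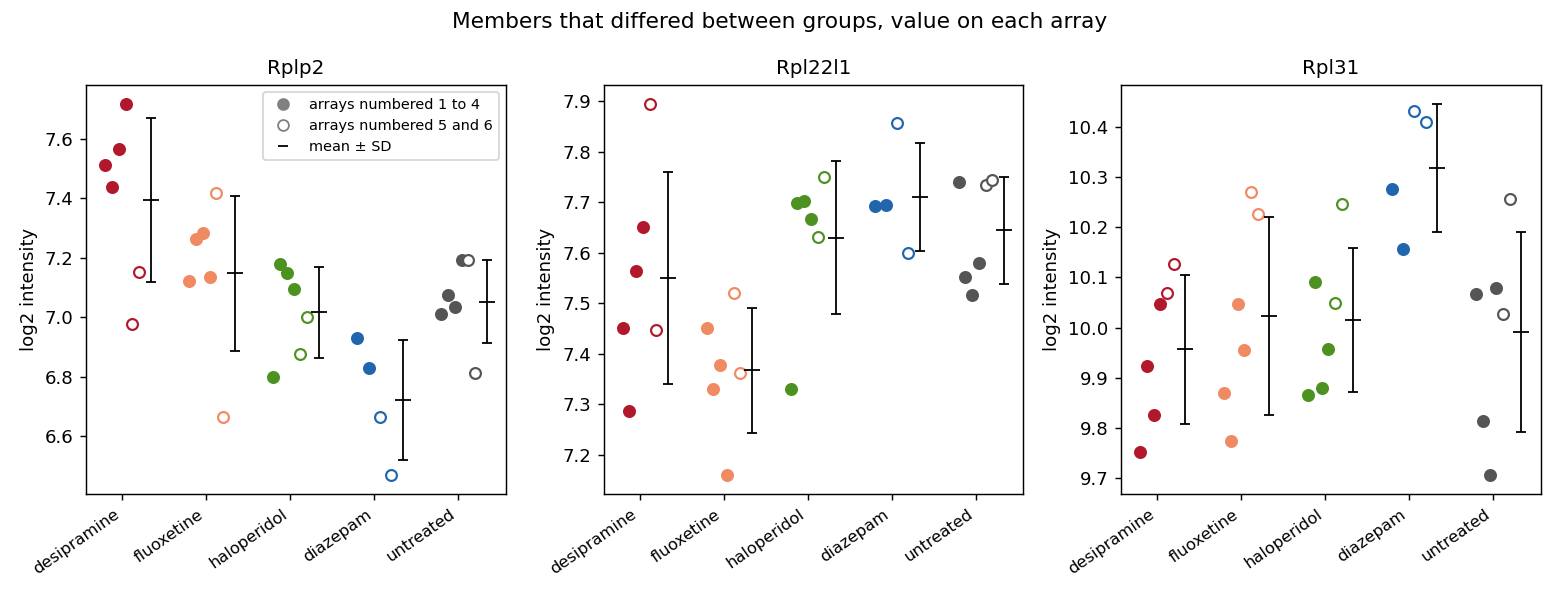
Log2 intensity of Rplp2, Rpl22l1 and Rpl31 on each array by group, with filled points for arrays numbered 1 to 4, open points for 5 and 6 and the mean ± SD beside each group. Rplp2 means run from 7.39 for desipramine to 6.72 for diazepam, against 7.05 for untreated cells.

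The other stalk genes had no call, and no test compared them with Rplp2. Rplp1, its partner in the acidic heterodimer, had 13.76, 13.92 and 13.94 (lowest, median, highest) on desipramine arrays, against 13.79, 13.93 and 13.95 in untreated cells. Its differences from untreated cells were −0.01 with desipramine, −0.0027 with fluoxetine, 0.01 with haloperidol and −0.04 with diazepam, and the groups overlapped throughout. Rplp0, the base of the stalk, had 14.51, 14.76 and 15.00 with desipramine, 14.81, 14.32, 15.09 and 15.09 on the diazepam arrays, and 14.40, 14.54 and 14.85 in untreated cells. Its differences were 0.16 with desipramine, 0.02 with fluoxetine, 0.06 with haloperidol and 0.24 with diazepam, none of which passed. The Rplp2 probe was dim, with a mean deposited intensity of 201 over the arrays.

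Rpl22l1 was the other member with a difference among the 5 groups (limma F test, adjusted p = 0.0498). It encodes a paralogue of Rpl22 that can take its place in the ribosome. On fluoxetine arrays it had 7.16, 7.37 and 7.52, against 7.52, 7.66 and 7.74 in untreated cells, and the ranges met at a single fluoxetine array. Desipramine arrays had 7.29, 7.51 and 7.90, and haloperidol arrays 7.33, 7.68 and 7.75. The 4 diazepam arrays had 7.69, 7.69, 7.86 and 7.60. The difference of fluoxetine from untreated cells was −0.28 (SE 0.087, 0.825-fold, limma adjusted p = 0.0716), and with the replicate block it was 1 member called of 63, with an adjusted p of 0.0335 in limma, where 7.58% of all probes were called. The difference of fluoxetine from diazepam was −0.34 (SE 0.097, limma adjusted p = 0.0343), a call lost under 3 of the 14 other settings and when any of 7 of the 10 arrays was left out, with adjusted p-values up to 0.142 in limma in the leave-outs. The F call was lost under 5 of the 14 other settings and when any of 22 of the 28 arrays was left out.

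All 6 pairs of drugs were compared, each with p-values adjusted over all probes, and 4 calls were made among the members. Desipramine against diazepam gave 2 of 63 (8.09% of all probes called), desipramine against haloperidol 1 (8.26%) and fluoxetine against diazepam 1 (4.78%). Desipramine against fluoxetine (8.29%), fluoxetine against haloperidol (3.63%) and haloperidol against diazepam (2.3%) gave 0 by limma, with 3, 2 and 5 members at an unadjusted p under 0.05. The call not yet described was Rpl31, a large-subunit protein near the exit of the nascent chain, which was named after its values were seen. It had 9.75, 9.99 and 10.13 with desipramine, against 10.28, 10.16, 10.43 and 10.41 on the diazepam arrays. The difference, desipramine minus diazepam, was −0.36 (SE 0.108, 0.778-fold, limma adjusted p = 0.0332), and it was lost under 7 of the 14 other settings. Untreated cells had 9.71, 10.05 and 10.26, and diazepam's difference from them was 0.33 (limma adjusted p = 0.201).

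Members known for further roles had no called change. Rps6 had 14.15, 14.23 and 14.30 with desipramine, 14.15, 14.23 and 14.35 with fluoxetine, 14.09, 14.18 and 14.27 with haloperidol and 14.05, 14.29 and 14.34 in untreated cells, and the diazepam arrays had 14.20, 14.35, 14.34 and 14.42. All groups overlapped, with differences of −0.03, −0.02, −0.07 and 0.08 from untreated cells. Rpl5, which with Rpl11 carries 5S ribosomal RNA and binds Mdm2, differed by −0.05 with desipramine, −0.23 with fluoxetine, −0.20 with haloperidol and −0.14 with diazepam (limma adjusted p = 0.88, 0.343, 0.43 and 0.841). Its fluoxetine arrays ran from 7.59 to 8.12 and its untreated arrays from 7.80 to 8.31. Rpsa, also known as the laminin receptor, differed by −0.04, −0.05, −0.05 and 0.03 in the same order. Rpl10, which joins the large subunit late in its assembly, differed by −0.02, 0.06, 0.0022 and −0.02.

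Lower values without a call were seen in several large- and small-subunit members, here named after their values were seen. Rpl7 had 9.97, 10.65 and 10.76 with desipramine, 10.03, 10.50 and 11.05 with fluoxetine and 10.56, 10.83 and 11.16 in untreated cells. Its differences were −0.33 with desipramine, −0.39 with fluoxetine, −0.26 with haloperidol and −0.11 with diazepam (limma adjusted p = 0.249, 0.18, 0.419 and 0.922). With haloperidol, Rpl23 differed by −0.30, Rps21 by −0.25 and Rpl24 by −0.32 (limma adjusted p = 0.121, 0.119 and 0.246), and the arrays of each overlapped the untreated ones. Rpl23 passed when haloperidol 3 was left out. The 2 probes of Rps9 disagreed: with fluoxetine the dimmer one differed by −0.34 and the brighter one by −0.03, and neither passed.

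Paralogues and the binding-protein gene also stayed uncalled. Rpl7l1, a nucleolar paralogue of Rpl7, differed by 0.10 with desipramine, 0.08 with fluoxetine, 0.08 with haloperidol and 0.12 with diazepam. Rpl3l, which replaces Rpl3 in mouse and human striated muscle, differed by 0.04, −0.03, −0.02 and 0.01 in the same order, and Rpl3 itself by −0.06, −0.05, −0.06 and −0.04. Rps19bp1 differed by 0.22 with desipramine and by −0.11, −0.09 and −0.03 with the other drugs. The X-linked Rps4x differed by 0.01, −0.03, −0.03 and −0.10, and Rps14, a protein of the small-subunit platform, by 0.02, 0.02, 0.01 and 0.01. Rps16 had differences of 0.08, 0.09, 0.06 and −0.13. None of these was called in limma's test, with or without the replicate block.

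The array number, which the labels give to each replicate, went with the level of some members when all groups were fitted together. The share of such members was close to that over all probes. Rpl13, Rpl30, Rpl3l and Rpl8 are described because their range over the numbers was among the 6 widest. A difference among the 6 numbers within groups was called for 21 of 63 members (33.3%, limma F test with Benjamini-Hochberg adjustment), where 29.9% of all probes were called. Rpl13 had 11.64 to 12.05 on the 10 arrays numbered 5 and 6 and 12.24 to 12.57 on the 18 numbered 1 to 4 (adjusted p = 4.97e-07 in limma). Rpl30 had a median of 6.98 (6.30 to 7.32) on arrays 5 and 6, against 6.53 (5.88 to 6.91) on arrays 1 to 4. Its fitted effects of the 6 numbers had a range of 1.08 log2 units (limma F test, adjusted p = 1.33e-05). Rpl3l had 6.66 to 7.10 on arrays 5 and 6, against 7.04 to 7.41 on arrays 1 to 4, and Rpl8 had 12.93 to 13.36, against 13.28 to 13.63. Rplp0 went the other way, with medians of 14.87 (14.58 to 15.09) and 14.50 (14.32 to 14.89). Over the 63 members the difference between numbers 5 and 6 and numbers 1 to 4 was below 0 for 43 and above 0 for 20, with a median of −0.063, against −0.00088 over all probes. What the numbers stand for is not stated in the labels.

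**Figure D4:**
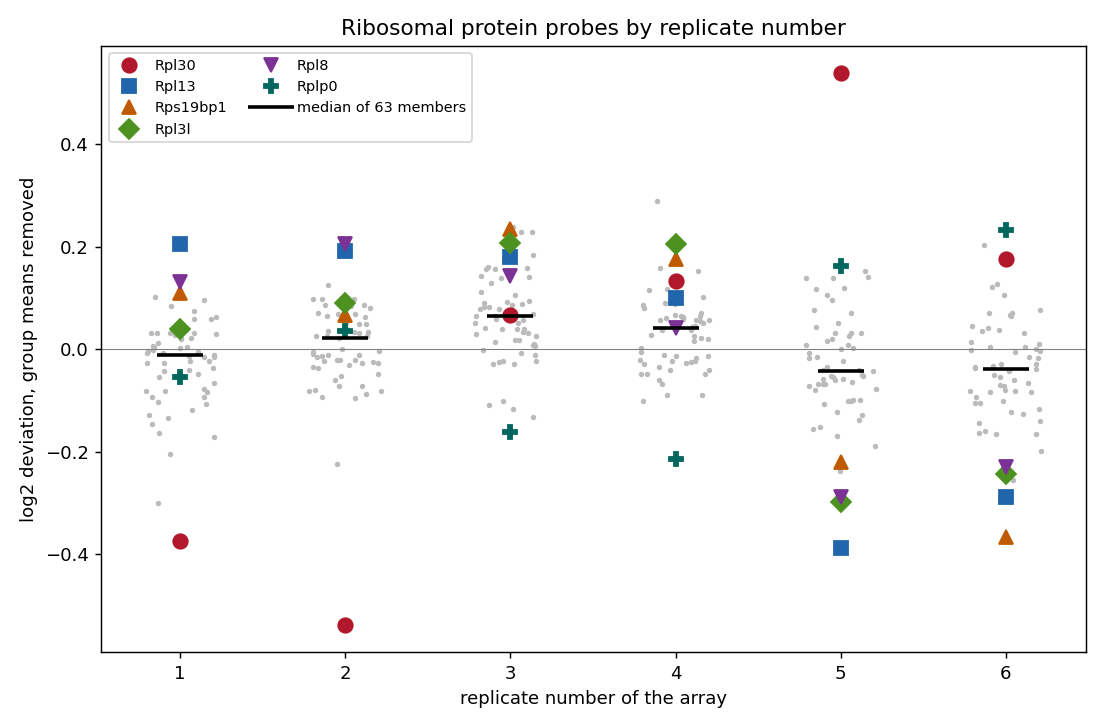
Fitted effect of each array number in log2 units, centred over the 6 numbers, from a model with group and number, for each of the 63 ribosomal protein probes. The 6 named probes are coloured, the others are grey and the median of the 63 is a bar. Rpl30 runs from −0.54 at number 2 to 0.54 at number 5, while the medians lie between −0.042 and 0.064.

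With group means removed, the members varied together from array to array to a limited degree. The median Pearson correlation over the 1953 pairs of members across the 28 arrays was 0.156, with 64.5% of pairs above 0, against −0.0011 and 49.9% over pairs of all probes. The arrays are shared by all pairs, and the bright members also share the top of the quantile-normalized range, so these are descriptions. Of the 63 probes, 22 correlated above 0.5 with the median of the others, and 14 correlated below 0. With the effects of array number removed as well, 20 correlated above 0.5 and 11 below 0. Of the stalk and S6 members named above, Rplp0 had −0.48 before and 0.05 after that removal, and Rps6 −0.27 before and 0.29 after.

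Among the other genes of the protein-synthesis pathway some probes were called, in several lists at a share near that over all probes. The list of ribosome biogenesis factors, which make and assemble the subunits and are not part of the finished ribosome, had 7 of 43 probes higher and 0 lower with desipramine in limma's test, where 3.37% of all probes were higher and 2.22% lower. Of the 43, 42 lay above 0, with a median of 0.14. The largest were Rrs1, needed for large-subunit assembly (8.60 ± 0.18 with desipramine and 8.02 ± 0.18 in untreated cells, SD, n = 6 each, 0.59 higher), and Rpp38, of RNase P and RNase MRP (0.44). Utp15 of the small-subunit processome rose by 0.41 with desipramine (limma adjusted p = 0.0312), 0.48 with fluoxetine (0.0126) and 0.45 with haloperidol (0.0202). Under the 14 other settings the call was lost in 4 for desipramine and in 4 for haloperidol, and among the 12 leave-outs in 8 for desipramine and 2 for haloperidol. The other 4 called with desipramine, named after their values were seen, were Gar1 of the H/ACA particles (0.38), Utp18 (0.38), Ppan (0.35) and Nip7 (0.33).

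The count of called biogenesis factors with desipramine was 14 of 43 with the replicate block (5.14% of all probes higher there), 4 of 43 among arrays numbered 1 to 4 (2.53%) and 0 of 43 among those numbered 5 and 6, where 40 of 43 still lay above 0 and 0 of all probes passed. It was 3 without desipramine 4 and 11 without desipramine 6. With fluoxetine 1 of 43 was higher (Utp15, median of the list 0.02, background 2.21% higher) and with haloperidol 3 (Utp15, Nop56 and Wdr75, median 0.04, background 2.28% higher). The haloperidol count was 1 without untreated 1, without haloperidol 1 or without the 3 arrays of low share, and 0 without those 3 arrays under median scaling. Nop56, of the box C/D particles, was 0.40 higher with haloperidol. The list gave 0 of 43 with diazepam by limma, with a median of −0.02 and 20 of 43 above 0. Whether the list differed between drugs was not tested.

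Translation factors were called singly without the block, 1 of 22 initiation factor probes with desipramine, 2 with fluoxetine and 1 with haloperidol, all higher. Of all probes 3.37%, 2.21% and 2.28% were higher. With the replicate block 3 were higher and 1 lower with desipramine (5.14% and 4.58% of all probes). The block gave 3 higher and 1 lower with fluoxetine (3.96% and 3.62%) and 2 higher with haloperidol (4.36%). Eif1a, which promotes scanning and start-codon selection, was higher with desipramine (0.43, limma adjusted p = 0.0019) and fluoxetine (0.34, 0.0172), the fluoxetine call lost under 5 of the 14 other settings and 3 of 12 leave-outs. Eif4ebp1, the mTOR target that holds back the cap-binding factor, was higher with fluoxetine (0.49, limma adjusted p = 0.0127), and Eif1b, a relative of Eif1, with haloperidol (0.35, 0.0039). Of 17 elongation factors and other TOP mRNAs, Vim, an intermediate filament gene of the TOP class, was lower with fluoxetine (−0.35, limma adjusted p = 0.044, background 1.54% lower), and no other was called under any drug. The Vim call was lost under 4 of the 14 other settings and in 8 of 12 leave-outs. Without the block, none of the 14 probes for S6 kinases and the mTOR pathway was called by limma. With it, 1 was higher with desipramine, 1 with fluoxetine, 2 with haloperidol and 0 with diazepam. In that fit 5.14%, 3.96%, 4.36% and 0.704% of all probes were higher. The single probe for Rack1, a protein of the small subunit outside the symbol rule, was called in neither fit.

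The ribosomal proteins of mitochondria, which serve a separate ribosome and are not TOP mRNAs, were set beside the cytosolic ones. With desipramine 1 of 56 was higher (Mrps18b, 0.31, limma adjusted p = 0.0256) and 0 lower, where 3.37% of all probes were higher. The Mrps18b call was lost under 5 of the 14 other settings and in 6 of 12 leave-outs. With fluoxetine 5 of 56 were lower, where 1.54% of all probes were lower, and 0 higher. These were Mrpl41 (−0.53), Mrpl49 (−0.42, with 8.95 ± 0.08 in fluoxetine and 9.37 ± 0.08 in untreated cells, SD, n = 6 each), Mrps17 (−0.28) and, named after their values were seen, Mrpl34 (−0.26) and Mrps12 (−0.22). The Mrpl41 call was lost under 3 of the 14 other settings and in 5 of 12 leave-outs. With the replicate block 10 of 56 were lower and 1 higher with fluoxetine, where 3.62% of all probes were lower and 3.96% higher. Desipramine had 1 higher and 1 lower in that fit (5.14% and 4.58% of all probes). Haloperidol and diazepam gave 0 of 56 each by limma without the block. With it, 1 was higher with haloperidol (Mrps18b, 4.36% of all probes higher) and 0 with diazepam.

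**Figure D5:**
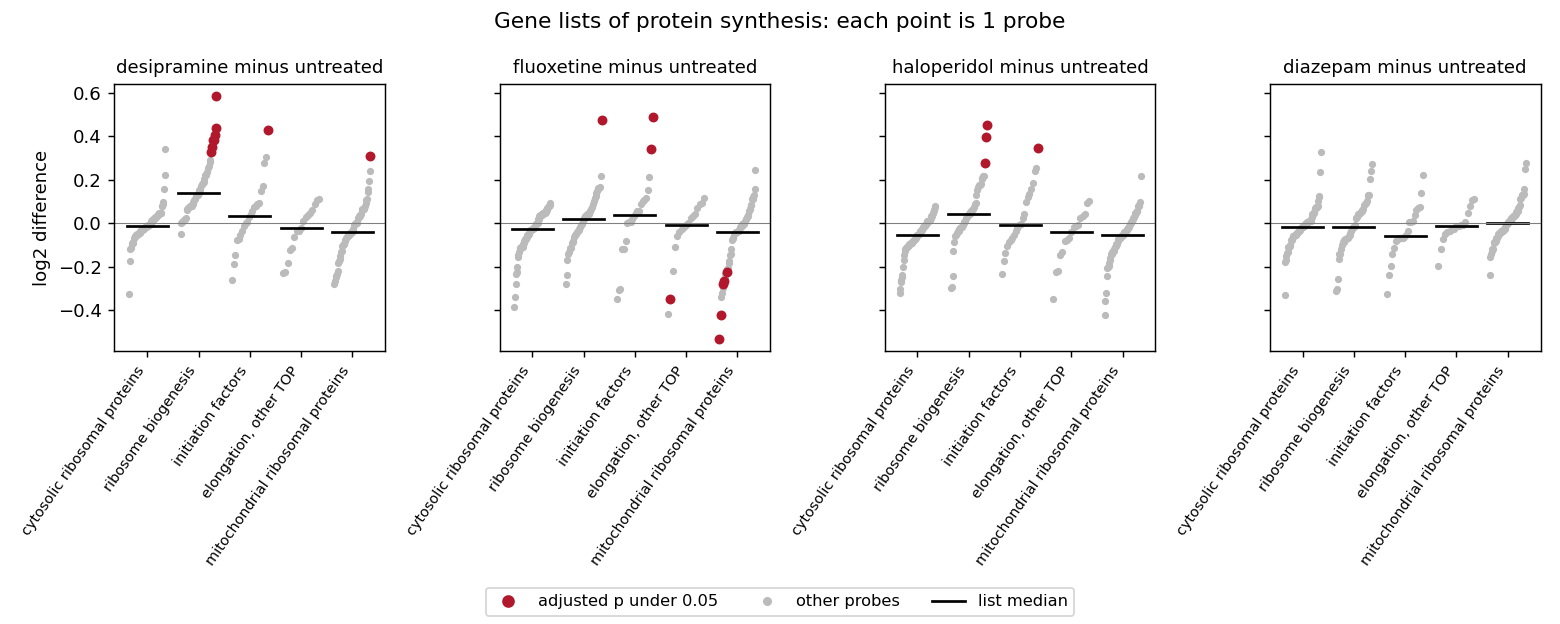
Log2 difference from untreated cells of each probe in the lists of cytosolic ribosomal proteins, ribosome biogenesis, initiation factors, elongation factors and other TOP mRNAs, and mitochondrial ribosomal proteins, by drug, with called probes coloured and list medians as bars. The calls are those of the fit without a replicate block. There the cytosolic ribosomal proteins hold no called probe, and the biogenesis list under desipramine has 42 of 43 probes above 0.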

How the data were processed

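Total RNA of 28 samples was measured on 1-colour Illumina bead arrays of 22523 probes. The deposited table holds, per sample, an intensity not yet normalized and a detection p-value from the negative-control beads, per the file headers. GenomeStudio 1.9.0 is named in the submitters' processing notes. The authors' normalized values, deposited as intensity on a linear scale, were used as an alternative, and how they were normalized is not given in the sources used here. A further 4 columns belong to no sample of the series and were not used. Intensities were background-corrected and quantile-normalized with limma's neqc (limma 3.58.1, R 4.3.3), to log2 values, the offset being 16. A probe was kept where its detection p-value fell below 0.05 on 4 or more arrays, which left 11364. Names came from the platform table, which gives 1 symbol for 13793 probes and none for 8730.

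Groups were compared in 1 limma fit over the 5 groups with Benjamini-Hochberg adjustment over all kept probes at 0.05. The fit was also run on simulated data with independent noise and no effect of array number. That run therefore does not cover the differences between numbers seen here. The number of arrays limits the precision. Named members were those called in a comparison or by the F test, the 5 brightest and 5 dimmest, genes whose probes disagree, the 6 with the widest range over array numbers, paralogues and variant proteins, and stalk, S6 and other members of known role. Up to 4 called genes with the largest change were named per list. The members and lists were chosen with earlier results of these data known. The 6 drug pairs, and leaving out 3 arrays alone or with median scaling, were added after the data were seen. Same-numbered arrays were checked by the correlation of their deviations from group means. It was 0.223 to 0.467 for desipramine with untreated and 0.104 to 0.508 for fluoxetine with untreated, so these numbers were taken to pair samples. The main fit does not use this pairing, so its spread includes differences between the numbers. The fit with the replicate block uses it. For haloperidol and diazepam the lowest correlations were −0.005 and 0.036. Share sums used the background-corrected intensities.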

Additional observations from a re-analysis of the deposited data

Results flagged for a closer look

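Within groups of 4 to 6 arrays, 6 of the 185 groups examined (3.24%) had an array far from the others by Dixon's criterion, where chance gives about 1 in 20. Rpl10 was low on desipramine array 4 (14.71, the next being 14.80) and high on untreated array 3 (14.96, the next being 14.80). Rpl22l1 was low on haloperidol array 1 (7.33, the next being 7.63). Rps14 was low on fluoxetine array 2 (14.66, the next being 14.80). Outside the ribosomal proteins, Vim was low on desipramine array 6 (12.24) and Utp15 on desipramine array 1 (6.58).

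Members also differed between drugs at the same dose and time. Rplp2 was higher with desipramine than with haloperidol (0.38 log2 units) and than with diazepam (0.67). Rpl31 was lower with desipramine than with diazepam (−0.36), and Rpl22l1 was lower with fluoxetine than with diazepam (−0.34). The Rpl22l1 call was lost under 3 of 14 other settings and in 7 of 10 leave-outs, the Rpl31 call under 7 of 14 and in 6 of 10, and the Rplp2 call against haloperidol under 6 of 14 and in 8 of 12.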

How the results depend on the processing

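No result changed sign on a called value under any alternative. The number of ribosomal protein probes called for desipramine was 1 with the replicate block, with array weights and among arrays numbered 1 to 4, against 0 as reported. For fluoxetine it was 1 with the replicate block, and also without desipramine 5 or haloperidol 1, arrays outside that comparison. The block left haloperidol and diazepam at 0. With each array of the compared groups left out in turn the counts ran from 0 to 1 for desipramine (1 without desipramine 5 or 6), stayed at 0 for fluoxetine and diazepam, and ran from 0 to 1 for haloperidol. The members past the 5-group F test numbered 3 with the replicate block (Rpl22l1, Rpl31 and Rplp2), against 2, and 1 with median scaling, the authors' normalized values, no filter and arrays numbered 1 to 4, 0 among arrays numbered 5 and 6, and 1 to 2 with arrays left out. The members varying with array number were 13 with median scaling, against 21. Member medians are given next for median scaling, 75th percentile scaling and the authors' normalized values. They were 0.032, 0.047 and 0.046 for desipramine, −0.099, −0.065 and −0.066 for fluoxetine and −0.143, −0.116 and −0.111 for haloperidol. Diazepam's was 0.019 with the 75th percentile, where all probes had 0.068, and 0.0097 with the replicate block. The mean summed share with no background correction was 7.01% for desipramine, 6.80% for fluoxetine, 6.62% for haloperidol, 6.97% for diazepam and 6.95% for untreated cells, and with the authors' normalized values 7.76% for desipramine and 7.54% for untreated cells, against 8.11%, 7.77%, 7.54%, 8.06% and 7.89% in the same order as reported. The cause of these shifts was not tested.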
